A study of Mus musculus with 15 samples.

Results

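The genes described here make, sense, take up, move, export and store cholesterol. They were chosen by name as 32 genes of these pathways, and 31 of them were among the 16729 genes measured. The exception was *Npc1l1*, an intestinal sterol transporter. The 31 genes comprise 18 enzymes that build cholesterol from acetyl-CoA, 5 regulators of the sterol-sensing transcription factors, 2 genes of lipoprotein uptake, 3 carriers of sterol inside the cell, and 3 genes of efflux or storage.

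RNA-seq was performed on mouse endometrial epithelial organoids, which are structures grown in Matrigel from uterine epithelial cells. All of the organoids carried floxed alleles of both *Smad2* and *Smad3* (Smad2flox/flox; Smad3flox/flox). Control organoids carried no Cre and were cultured with vehicle (DMSO, n = 3) or with A83-01 (n = 4), an inhibitor of the TGFβ and activin type I receptors. *Smad2/3* cKO organoids also carried Ltfcre/+, a Cre driven by the lactoferrin promoter in the uterine epithelium of adult females, and were cultured with vehicle (n = 4) or with A83-01 (n = 4). The mice had received estradiol at weaning to induce the Cre. The sample descriptions also give each sample a number, and the numbers fall into a lower and a higher series. The higher series comprised replicate 3 of control + vehicle, replicates 3 and 4 of control + A83-01 and replicates 3 and 4 of *Smad2/3* cKO, and all other samples belonged to the lower one. Replicates 1 to 3 of control + vehicle carried the same numbers as replicates 1 to 3 of control + A83-01. Replicate 1 of *Smad2/3* cKO shared its number with the first control replicate although the genotypes differ, and replicate 2 of *Smad2/3* cKO shared its number with replicate 1 of *Smad2/3* cKO + A83-01. The labels do not say what the numbers stand for. Values below are given in the order of the replicates.

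Values are normalized counts, that is, estimated reads per gene after normalization between the samples. They summed to 20241771 to 24423127 per sample. The 8 epithelial markers checked were above 50 in at least 1 sample each and summed to 248909 to 321768 in control + vehicle and 158616 to 275292 with A83-01. In *Smad2/3* cKO they summed to 126219 to 236483, below every control + vehicle sample, and to 125465 to 193166 with A83-01. The 5 uterine epithelial markers went the other way, from 12289 to 14020 in control + vehicle and from 15039 to 18370 over the other 12 samples. The part of these shifts in the results was not tested. Stromal markers summed to at most 201, smooth muscle markers to at most 219 and endothelial markers to at most 27.6. The summed leukocyte markers, mostly *Cd68*, ran from 1261 to 2896 in control + vehicle and from 3402 to 8757 with A83-01. In *Smad2/3* cKO they ran from 2116 to 5795, and from 4032 to 7970 with A83-01. Such values come from bulk samples, in which fewer cells of a type and less RNA per cell cannot be told apart. *Smad2* read 1045 to 1335 in control + vehicle and 821 to 924 in *Smad2/3* cKO, while *Smad3* read 1532 to 1741 and 1170 to 1977. These values cover whole genes, including the exons that Cre leaves in place, so they do not check the deletion.

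Cholesterol is made from acetyl-CoA through mevalonate, farnesyl diphosphate, squalene and lanosterol. When membranes of the endoplasmic reticulum run low in sterol, SCAP escorts the SREBP proteins to the Golgi, where they are cut to release transcription factors that switch on the synthesis and uptake genes. INSIG proteins hold SCAP back when sterol is plentiful, and LXR receptors, which sense oxidised sterols, switch on the efflux pumps. Epithelial cells of the uterus draw on this supply for their membranes as they proliferate.

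None of the 31 genes passed the thresholds in any of the 4 comparisons between groups or in the test of the genotype by A83-01 interaction. Each comparison used limma on log2(value + 1), and a gene passed at an adjusted p below 0.01 with a fold change above 1.4 or below its inverse. For A83-01 in control organoids, 0 of 31 passed, against 2.27% of all 13009 genes tested. For *Smad2/3* cKO against control with vehicle, 0 of 31 passed, against 7.38% of 13149 genes. For both of these comparisons the paper, which used DESeq2 at the same cutoffs, reported more genes past them than limma gave here. With A83-01 in both genotypes, *Smad2/3* cKO against control gave 0 of 31 and 0.0232% of 12915 genes. A83-01 in *Smad2/3* cKO organoids gave 0 of 31, and 0 of 12998 genes in all (0%). The interaction gave 0 of 31 members and 0.551% of 13066 genes. At an unadjusted p below 0.05, limma counted 6 of the 31 genes for A83-01 in control organoids against 22.2% of all genes, and 10 for genotype with vehicle against 33.7%. The count was 1 for A83-01 in *Smad2/3* cKO (4.26% of all genes), 1 for genotype with A83-01 (9.52%) and 2 for the interaction (14.3%).

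The intervals show how far this goes. For A83-01 in control organoids, the 95% interval of the log2 fold change lay within -1 and 1, a 2-fold range, for 24 of the 31 genes and for 16 of the 18 enzymes. The corresponding counts were 23 and 16 for genotype with vehicle, 28 and 18 for A83-01 in *Smad2/3* cKO, and 26 and 18 for genotype with A83-01. Values were also simulated with the spread of these samples. For A83-01 in control organoids, 6.94% of genes changed 2-fold passed (5 of 72), and 45.6% of those changed 4-fold (31 of 68). For genotype with vehicle the shares were 4.62% (3 of 65) and 53.0% (35 of 66). Fewer genes were changed in the simulation than passed in the samples themselves (295 and 970), and the adjusted p depends on that number. The shares therefore do not give how often such changes would pass in the samples. These shares are for genes at large, and the share for the 31 genes themselves was not tested. On the log2 scale the median within-group SD was 0.31 for the 31 genes and 0.36 for all genes with a mean of at least 10. It was 0.27 for all genes with a mean of at least 500, a level that most of the 31 genes reached.

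**Figure D1:**
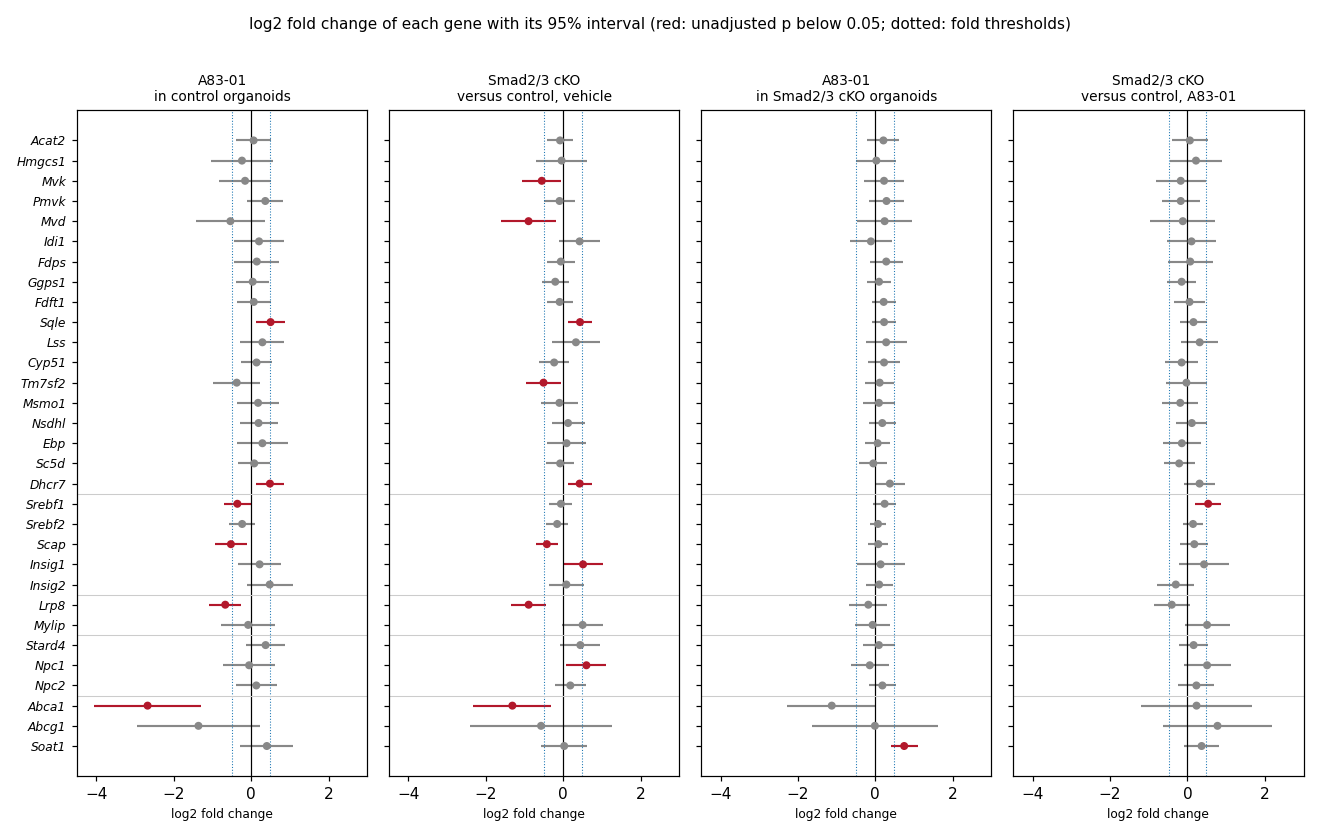
log2 fold change (x axis) of each of the 31 genes (y axis, grouped by role) in the 4 comparisons, with its 95% interval; red marks an unadjusted p below 0.05 and dotted lines mark a fold change of 1.4 and its inverse. *Abca1* with A83-01 in control organoids lies farthest from 0, at -2.68, and 24, 23, 28 and 26 of the 31 intervals stay within -1 and 1.

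*Hmgcs1*, which condenses acetyl-CoA units into the precursor of mevalonate, did not separate the groups. Its values were 5494, 6762 and 2923 in control + vehicle and 3973, 6173, 4499 and 2435 in control + A83-01. They were 5737, 5561, 3711 and 3895 in *Smad2/3* cKO and 7114, 5022, 3590 and 3872 in *Smad2/3* cKO + A83-01. The ranges of all 4 groups overlapped, and control + vehicle alone spanned 2923 to 6762. Its log2 fold change was -0.24 ± 0.36 (SE) for A83-01 in control organoids (adjusted p = 0.761) and -0.04 for genotype with vehicle (adjusted p = 0.935).

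*Sqle* encodes squalene epoxidase, which adds the oxygen that lets squalene close into the sterol rings. Control + vehicle read 3937, 4171 and 3028, below every other sample of the series. Values were 5757, 5147, 5433 and 4583 in control + A83-01, 5256, 4948, 4623 and 5066 in *Smad2/3* cKO, and 7278, 6025, 4780 and 5438 in *Smad2/3* cKO + A83-01. The log2 fold change was 0.50 (95% interval 0.13 to 0.88) for A83-01 in control organoids and 0.43 (0.12 to 0.75) for genotype with vehicle. Neither passed, with adjusted p-values of 0.107 and 0.0596, and both comparisons share the control + vehicle samples.

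*Dhcr7*, which carries out the last reduction to cholesterol, was singled out after its values were seen because its pattern was that of *Sqle*. Control + vehicle read 1179, 976 and 1022, and control + A83-01 read 1682, 1366, 1369 and 1523. *Smad2/3* cKO read 1532, 1544, 1297 and 1315, and *Smad2/3* cKO + A83-01 read 1749, 2570, 1778 and 1434. Again the 3 control + vehicle samples were the lowest of the 15. Its log2 fold change was 0.49 for A83-01 in control organoids (adjusted p = 0.101) and 0.42 for genotype with vehicle (adjusted p = 0.0592).

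Groups without any overlap in value were counted for each comparison. For A83-01 in control organoids, 2 genes lay wholly above control + vehicle (*Sqle*, *Dhcr7*) and 4 wholly below (*Srebf1*, *Scap*, *Lrp8*, *Abca1*), 6 of 31. Of all genes tested, 10.3% lay above, 11.5% below and 21.7% in either direction. For genotype with vehicle, 3 lay above (*Sqle*, *Dhcr7*, *Mylip*) and 2 below (*Scap*, *Lrp8*), 5 of 31. Of all genes tested, 14.8% lay above, 16% below and 30.8% in either direction. The share of members was near or below that of all genes in both. A83-01 in *Smad2/3* cKO organoids gave 1 of 31 (*Soat1*, higher) against 1.88% of all genes higher, 1.02% lower and 2.9% in all, and genotype with A83-01 gave 2 of 31 (*Srebf1*, *Srebf2*, both higher) against 3.38% higher, 2.73% lower and 6.12% in all.

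The other enzymes varied more among themselves than as a group. For A83-01 in control organoids, the log2 fold changes of the 18 enzymes ran from -0.54 for *Mvd* to 0.50 for *Sqle*, with a median of 0.14 beside -0.02 for all genes. Of the 18, 14 were positive, but 11 after quantile normalization and 10 after rescaling the samples to equal totals. Equal totals moved the median of all genes to -0.12, so most of the drop was shared with all genes. The direction rested on single samples: 8 of the 18 were positive without replicate 3 of control + vehicle (median -0.01), and 10 without replicate 1 of control + A83-01 (median 0.05). For genotype with vehicle they ran from -0.90 to 0.43, with 6 positive and a median of -0.08. Without replicate 1 of control + vehicle 10 were positive (median 0.03), and without replicate 4 of *Smad2/3* cKO 9 were (median 0.01). The replicate block gave the same values, since the unmatched replicate 4 adds nothing to the difference there. Those at an unadjusted p below 0.05 on the lower side were *Mvd* and *Mvk*, which act in turn on mevalonate and its phosphates, and *Tm7sf2*, a sterol reductase. *Mvd* (mean ± SD) read 2027 ± 751 (n = 3) in control + vehicle and 1078 ± 322 (n = 4) in *Smad2/3* cKO (adjusted p = 0.0816), and the groups overlapped. For *Mvk* the log2 fold change was -0.55 (adjusted p = 0.115) and for *Tm7sf2* it was -0.51 (adjusted p = 0.104).

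**Figure D2:**
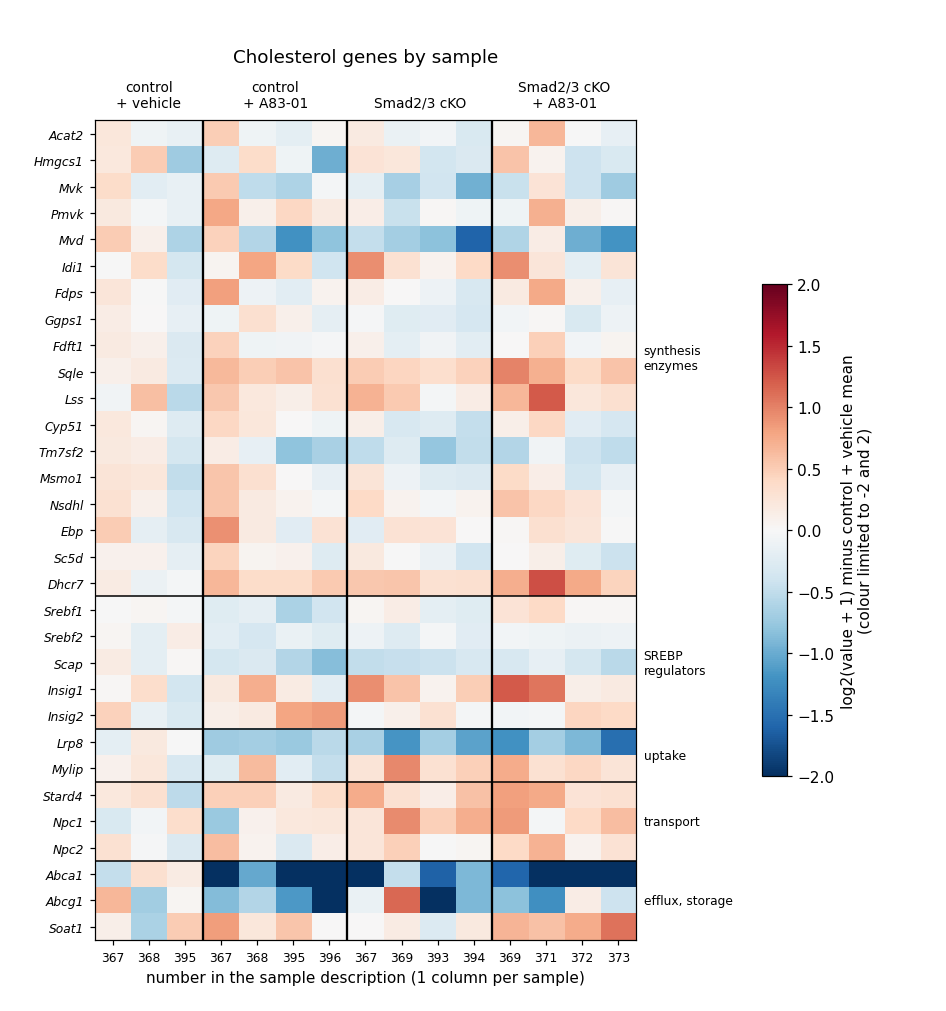
log2(value + 1) of each gene (rows, grouped by role) in each sample (columns, labelled by the number in the sample description) minus the mean of control + vehicle. Red is higher, blue is lower, and colour stops at -2 and 2. *Abca1* and *Lrp8* are blue across the 3 groups other than control + vehicle, while *Sqle* and *Dhcr7* are red there.

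*Srebf1* and *Srebf2* encode the SREBP precursors, of which the first favours fatty acid synthesis and the second cholesterol synthesis. *Srebf1* read 3135, 3252 and 3078 in control + vehicle, 2673, 2798, 2040 and 2422 in control + A83-01, 3248, 3495, 2762 and 2673 in *Smad2/3* cKO, and 3793, 4180, 3222 and 3202 in *Smad2/3* cKO + A83-01. With A83-01, every *Smad2/3* cKO sample was above every control sample, with a log2 fold change of 0.54 (0.20 to 0.87, adjusted p = 0.262). The log2 fold change for A83-01 was -0.36 in control organoids and 0.24 in *Smad2/3* cKO organoids. Their difference, the interaction, was 0.60 (95% interval 0.18 to 1.01, unadjusted p of 0.008 from limma, adjusted p = 0.155), which did not pass.

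*Srebf2* was the steadiest of the 31 genes, with a within-group SD of 0.10 on the log2 scale against a median of 0.31 for the members. It read 4673, 3947 and 5027 in control + vehicle, 3924, 3586, 4114 and 3810 in control + A83-01, 4212, 3796, 4388 and 3871 in *Smad2/3* cKO, and 4345, 4286, 4189 and 4228 in *Smad2/3* cKO + A83-01. The lowest and highest of the 15 samples were 3586 and 5027. Its log2 fold change was -0.23 (-0.56 to 0.09) for A83-01 in control organoids and 0.07 in *Smad2/3* cKO organoids.

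*Scap*, the escort of the SREBPs, had its highest values without A83-01 or Cre. Control + vehicle read 2063, 1612 and 1878, and control + A83-01 read 1446, 1499, 1221 and 1020. *Smad2/3* cKO read 1314, 1336, 1374 and 1474, and *Smad2/3* cKO + A83-01 read 1478, 1644, 1440 and 1264. Only replicate 2 of the last group reached into the range of control + vehicle. The log2 fold change was -0.52 for A83-01 in control organoids (adjusted p = 0.129) and -0.42 for genotype with vehicle (adjusted p = 0.0504). The interaction was 0.60 (adjusted p = 0.168).

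The INSIG genes hold SCAP in the endoplasmic reticulum, and *Insig1* is itself a target of the SREBPs. *Insig1* read 1680, 2113 and 1286 in control + vehicle, 1900, 2743, 1856 and 1438 in control + A83-01, 3158, 2453, 1739 and 2329 in *Smad2/3* cKO, and 3876, 3497, 1804 and 1877 in *Smad2/3* cKO + A83-01. Each neighbouring pair of groups overlapped, and the log2 fold change for genotype with vehicle was 0.51 (0.00 to 1.02, adjusted p = 0.148). *Insig2* read 1382, 907 and 817 in control + vehicle and 1088, 1140, 1737 and 1819 in control + A83-01. It read 984, 1080, 1246 and 978 in *Smad2/3* cKO and 968, 985, 1351 and 1323 in *Smad2/3* cKO + A83-01. The largest of its log2 fold changes was 0.48 (-0.11 to 1.07), for A83-01 in control organoids.

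**Figure D3:**
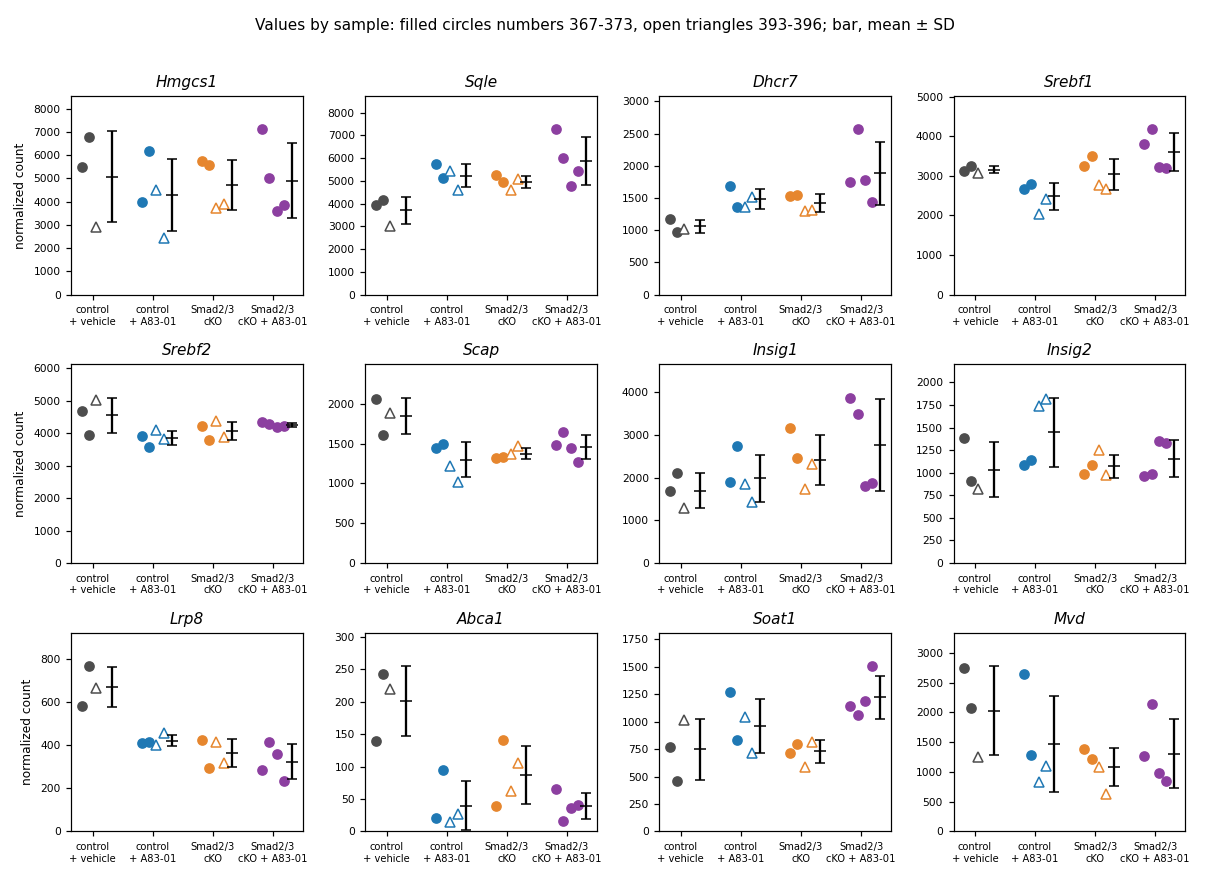
Normalized count (y axis, from 0) of 12 genes in each sample by group, with the mean ± SD beside the points; filled circles are the lower number series and open triangles the higher. Outside control + vehicle, *Lrp8* is at or below 458, and within it at 584 to 769, whereas the 4 groups overlap for *Hmgcs1*.

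For uptake, 2 genes were measured. *Lrp8*, a receptor of the LDL receptor family that binds apolipoprotein E and reelin, was singled out after its values were seen as the member nearest to the thresholds for genotype. It read 584, 769 and 667 in control + vehicle, 410, 416, 401 and 458 in control + A83-01, 425, 296, 418 and 319 in *Smad2/3* cKO, and 288, 418, 360 and 235 in *Smad2/3* cKO + A83-01. The 3 control + vehicle samples lay above the other 12. The log2 fold change for genotype with vehicle was -0.89 (-1.34 to -0.45, a fold of 0.539, adjusted p = 0.015), and that for A83-01 in control organoids -0.67 (adjusted p = 0.0589). *Lrp8* did pass for genotype with vehicle when all 4 groups were in the fit (adjusted p = 0.00757). *Mylip*, a ubiquitin ligase that degrades lipoprotein receptors and is a target of LXR, ran from 219 to 321 in control + vehicle and from 327 to 533 in *Smad2/3* cKO (log2 fold change 0.50, adjusted p = 0.172).

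Among the sterol carriers, *Stard4*, which moves sterol through the cytosol, had a log2 fold change of 0.37 for A83-01 in control organoids and 0.44 for genotype with vehicle (adjusted p = 0.371 and 0.211). *Npc1* and *Npc2*, which pass cholesterol out of late endosomes, had values of 0.60 and 0.18 for genotype with vehicle (adjusted p = 0.1 and 0.504). *Npc1* was highest at 730 in *Smad2/3* cKO replicate 2. That sample also held the highest *Mylip* and *Abcg1* of the series, at 533 and 59.7, and 351 of the macrophage marker *Adgre1*, which was at most 9.01 in the other samples. Of the other leukocyte markers, *Csf1r* was also highest there, at 822. *Cd68*, at 3258, was below the 5184 and 4083 of *Smad2/3* cKO replicates 3 and 4. *Ptprc*, at 309, was below the 514 of *Smad2/3* cKO + A83-01 replicate 1. The part of leukocytes in the values of that sample was not tested. Without that sample the log2 fold changes for genotype with vehicle were 0.48 (adjusted p = 0.197) for *Npc1* and 0.35 (adjusted p = 0.327) for *Mylip*, and neither passed.

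*Abca1*, the pump that loads cholesterol onto apolipoprotein A-I, was singled out after its values were seen for the largest log2 fold change. Control + vehicle read 140, 243 and 219, and control + A83-01 read 21.2, 95.3, 13.9 and 26.9, with no overlap. *Smad2/3* cKO read 39.5, 140, 63.1 and 105, so its highest sample reached the lowest of control + vehicle. *Smad2/3* cKO + A83-01 read 64.7, 15.5, 36.7 and 40.8. The log2 fold change was -2.68 ± 0.61 (SE) for A83-01 in control organoids (a fold of 0.157, adjusted p = 0.0334) and -1.31 for genotype with vehicle (adjusted p = 0.071). Leaving out replicate 2 of control + A83-01, the sample at 95.3, gave -3.23 with an adjusted p of 0.00534, which passed. Leaving out any 1 of the other 6 samples gave -2.92 to -2.33 with adjusted p-values of 0.0577 to 0.144. A83-01 in *Smad2/3* cKO organoids gave -1.13 (-2.27 to 0.02), and the interaction 1.55 (-0.24 to 3.34, adjusted p = 0.443). The leukocyte sum given above was highest in groups in which *Abca1* was low, and its part in the result was not tested. *Abca1* also has the longest annotated transcript of the 31 genes, at 10262 bases. In each group it was highest in the sample with the highest correlation of deviations with transcript length, described below. For the sample at 95.3, Spearman's rho was 0.38 across genes. The part of transcript length in the *Abca1* values was not tested either.

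*Abcg1*, a second efflux pump, was near the filter on low values, from 2.84 to 59.7 over the 15 samples, and its intervals were the widest of the 31 in 3 of the 4 comparisons between groups. In the fourth, genotype with A83-01, that of *Abca1* was the widest. *Soat1* esterifies cholesterol for storage in droplets. It read 771, 457 and 1012 in control + vehicle, 1268, 833, 1039 and 710 in control + A83-01, 715, 794, 589 and 813 in *Smad2/3* cKO, and 1139, 1061, 1184 and 1506 in *Smad2/3* cKO + A83-01. *Soat1* was thus the only one of the 31 for which A83-01 separated the *Smad2/3* cKO groups, with a log2 fold change of 0.75 (0.40 to 1.10). Its adjusted p was 0.994, as for nearly all genes in that comparison, and the unadjusted p from limma was 0.000786.

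A83-01 in *Smad2/3* cKO organoids gave small positive values for most enzymes. Of the 18, 16 had a positive log2 fold change, between -0.11 for *Idi1* and 0.38 for *Dhcr7*, with a median of 0.21 beside 0.00 for all genes. Without replicate 2 of *Smad2/3* cKO + A83-01 the median was 0.05, with 14 positive, and with sample weights it was 0.09. The *Smad2/3* cKO + A83-01 cultures, however, were all of the lower number series, while *Smad2/3* cKO held 2 of each. With the series as a term in the fit, 12 of the 18 were positive and the median was 0.08. The number series and A83-01 cannot be fully told apart in this comparison. For genotype with A83-01, the same term changed the enzymes from 9 of 18 positive with a median of 0.02 to 3 of 18 with a median of -0.19, while leaving out replicate 1 of control + A83-01 gave 13 of 18 and 0.17.

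Most enzymes ranked alike among the samples of a group. In control + vehicle, replicate 1 held the highest value for 14 of the 18 enzymes and replicate 2 for the other 4, while replicate 3, of the higher series, held the lowest for 16. In control + A83-01, replicates 1 and 2 held the highest for 15 and 3, and replicates 3 and 4, of the higher series, for none. *Smad2/3* cKO gave 15 and 3 for replicates 1 and 2 and none for the 2 of the higher series. In *Smad2/3* cKO + A83-01, where all samples are of the lower series, replicates 1 and 2 held 5 and 13, and replicates 3 and 4 none. The mean log2 value of the 18 enzymes was 11.41, 11.31 and 10.89 in control + vehicle, and 11.65, 11.32, 11.13 and 11.10 in control + A83-01. In *Smad2/3* cKO + A83-01 it ran from 11.07 to 11.64.

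A test of the number series, added after this pattern was seen, compared the higher with the lower series within groups in a fit over the 15 samples. *Smad2/3* cKO + A83-01, all of the lower series, adds nothing to the differences themselves, which rest on the 3 groups that hold both series. All 18 enzymes were lower in the higher number series, with a median log2 difference of -0.33 beside 0.01 for all genes, from -0.83 for *Mvd* to -0.06 for *Pmvk*. The count was 17 of 18 with sample weights (median -0.29) and without replicate 1 of control + A83-01 (median -0.25). It stayed at 18 in the other settings. No enzyme passed, and the lowest adjusted p was 0.0821, for *Msmo1*, while 0 of 13066 genes passed in all (0%). At an unadjusted p below 0.05, limma counted 8 of the 18 enzymes as lower, against 8.05% of all genes. *Hmgcs1* differed by -0.70 (-1.13 to -0.26), and outside the enzymes *Insig1* by -0.49 and *Stard4* by -0.34. Among the other regulators, *Srebf1* differed by -0.24 (-0.45 to -0.03), *Srebf2* by 0.10, *Scap* by -0.10 and *Insig2* by 0.18. *Npc2* differed by -0.39 and *Abcg1* by -1.27, and neither passed. In the vehicle samples alone, which are part of the same samples, all 18 were lower as well, with a median of -0.31. Several samples share a number, and the pattern was seen in the same samples, so the p-values are a description.

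**Figure D4:**
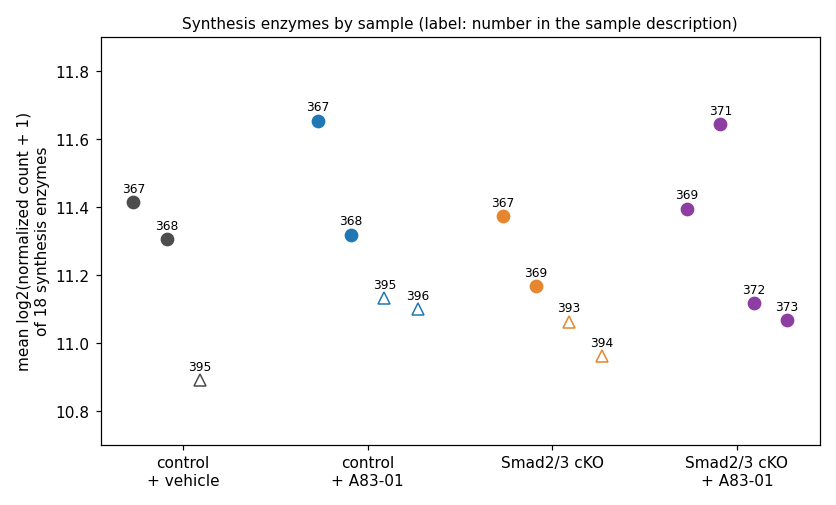
Mean log2(normalized count + 1) of the 18 synthesis enzymes (y axis) in each of the 15 samples by group, labelled with the number in the sample description. Circles are the lower series and triangles the higher. In each group the first 2 samples lie above the others, and the spread within control + vehicle, 10.89 to 11.41, is wider than the distance between any group means, which lie between 11.14 and 11.31.

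The enzymes did not all peak in the same sample. In control + A83-01, *Hmgcs1*, *Idi1* and *Ggps1* were highest in replicate 2 and the other 15 in replicate 1. Within-group deviations over 13049 genes were correlated with the length of the longest annotated transcript in opposite directions in these 2 samples (Spearman's rho 0.38 in replicate 2 and -0.41 in replicate 1, across genes, which are not independent replicates). In *Smad2/3* cKO + A83-01, rho was 0.29 in replicate 1 and -0.28 in replicate 2, between which the highest values of the 18 enzymes were split. The part of transcript length in these values was not tested.

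Replicates 1 to 3 of the control groups carried the same numbers with vehicle and with A83-01, so A83-01 could also be read within these 3 number-matched pairs. In them 14, 10 and 14 of the 18 enzymes were higher with A83-01, with median log2 differences of 0.27, 0.04 and 0.26. The enzymes higher in all 3 pairs numbered 8 (*Pmvk*, *Idi1*, *Sqle*, *Cyp51*, *Msmo1*, *Nsdhl*, *Ebp*, *Dhcr7*), and *Mvd* and *Tm7sf2* were lower in all 3. Of all genes tested, 24.2% were higher and 25.4% lower in all 3 pairs. *Dhcr7* differed by 0.51, 0.48 and 0.42 and *Sqle* by 0.55, 0.30 and 0.84. *Srebf1*, *Srebf2*, *Scap*, *Lrp8* and *Abca1* were lower in all 3, with log2 differences of -0.51, -0.89 and -0.73 for *Lrp8* and -2.66, -1.34 and -3.88 for *Abca1*. *Insig1*, *Stard4* and *Soat1* were higher in all 3, by 0.18, 0.38 and 0.53 for *Insig1*, by 0.28, 0.16 and 0.69 for *Stard4* and by 0.72, 0.86 and 0.04 for *Soat1*. With the pair as a block, 0 of the 31 genes passed.

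Of 52 further genes of lipid synthesis, SREBP control, isoprenoid branches, lipoprotein receptors, sterol transport and LXR signalling, 51 were tested for A83-01 in control organoids, and 1 rose and 1 fell, against 1.19% and 1.08% of all genes. *Mid1ip1*, which promotes polymerisation of acetyl-CoA carboxylase in fatty acid synthesis, rose from 2537 to 3876 in control + vehicle to 10124 to 16588 in control + A83-01 (log2 fold change 1.98, adjusted p = 0.00155). *Lrp2*, the endocytic receptor megalin, fell from 114, 20.8 and 85.8 to 0, 2.46, 0 and 0 (adjusted p = 0.00844, but 0.0222 with the replicate block, which ends the call). For genotype with vehicle, 2 of 51 rose and 2 fell, against 4.08% and 3.3% of all genes. *Mid1ip1* rose (2.31, adjusted p = 0.000386), as did *Stard3*, which tethers endosomes for sterol transfer (1.24, adjusted p = 0.000403). *Acsl3*, a fatty acyl-CoA ligase of lipid droplets, fell from between 6090 and 7587 to between 1818 and 3080 (-1.62, adjusted p = 0.00112). *Gramd1a*, a sterol carrier at membrane contacts, fell by 0.82 on the log2 scale (adjusted p = 0.00778). With the replicate block its adjusted p was 0.0248, but replicate positions did not pair the samples of these groups. Neither comparison within A83-01 or within *Smad2/3* cKO gave any call among 49 of these genes. For *Mid1ip1* alone the interaction passed (-1.73, adjusted p = 0.00577), against 0.0995% of all genes higher and 0.452% lower. With the replicate block its adjusted p was 0.014, but replicate positions did not pair the *Smad2/3* cKO samples.

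RefSeq promoter sequences, 250 bases before to 50 bases after each annotated start on GRCm38.p6, were matched for 26 of the 32 listed genes and searched on both strands for letters linked to sterol control. A short form of the sterol regulatory element, TCACNCCAC, was found in 1 of 26 (*Hmgcs1*) and in 1.44% of the 27025 genes with a promoter. The E-box CACGTG, which SREBPs can also bind, was found in 5 of 26 (*Insig1*, *Scap*, *Sc5d*, *Dhcr7*, *Abca1*) and in 8.09% of genes. CCAAT, the letters of the SREBP partner NF-Y, was found in 22 of 26 and in 41.1%. The SMAD palindrome GTCTAGAC was found in none of the 26 and in 0.248%. A gene counted once if any of its promoters held the letters. The windows below show the element of *Hmgcs1*, the first enzyme described here, with a CCAAT (here read as ATTGG, its reverse complement) before it, and the E-boxes of *Insig1* and of *Abca1*, the gene with the largest difference. Capitals mark these letters, 5′ to 3′ on the gene's strand, and each window lies before the annotated start (chr13:119690164-119690243, plus strand; chr5:28071274-28071353, plus strand; chr4:53160000-53160079, minus strand).
Hmgcs1: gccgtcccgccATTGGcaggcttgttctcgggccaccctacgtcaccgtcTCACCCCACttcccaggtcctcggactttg
Insig1: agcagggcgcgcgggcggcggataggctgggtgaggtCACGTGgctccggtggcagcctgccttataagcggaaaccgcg
Abca1: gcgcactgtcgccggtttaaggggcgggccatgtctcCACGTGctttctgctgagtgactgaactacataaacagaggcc
The presence of these letters is a description and does not show that a factor bound there.

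Some members overlap another gene, and the library kit is not stated to keep the strand, so reads there could not be assigned with certainty. *Fdft1*, squalene synthase, shares 774 of its 4227 exon bases with *Ctsb* on the opposite strand, a gene with a mean of 536104. *Fdft1* read 4054 to 6905 over the 15 samples. *Fdps* shares 1124 exon bases with an annotated model of mean 4.65 and *Tm7sf2* 532 with *Vps51*. Exon overlaps of at most 511 bases were found for *Ggps1*, *Cyp51*, *Srebf1* and *Npc1*. *Acat2* has a near-identical neighbour, *Acat3*, with which reads may be split.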

How the data were processed

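RNA was extracted from organoids of the 15 samples and made into libraries with the SMART-Seq v4 Ultra Low Input kit. Per the labels and the paper, the authors estimated counts per gene with Salmon 1.4.0 on GRCm39 and used DESeq2 1.32.0. The deposited values, a signal on the count scale, are normalized estimated counts. The median ratio to the geometric mean was 1.01137 in every sample. This ratio cannot tell 1 size factor per sample from factors that also differ by gene. Whether the values were corrected for transcript length is therefore not known. Whole reads were not recovered: at most 11.8% of values under 12 in a sample lay within 0.02 of a whole multiple of any 1 step, so count models were not used. Symbols were matched for 16697 of 16729 genes.

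Comparisons were made with limma 3.58.1 (lmFit, eBayes with trend) in R 4.3.3 on log2(value + 1), keeping genes whose mean over the fitted samples reached 10, each pair of groups on its own samples and the interaction on all 15. This scale understates changes of genes with low values. P-values were adjusted by Benjamini-Hochberg over all genes tested, and the code was tested on simulated data. Other settings tried were a pseudocount of 0.1 or 10, a minimum mean of 50 or no minimum, quantile normalization, equal totals, eBayes without trend, sample weights, a replicate block, a number-series term, 1 fit over all 4 groups, a threshold of 0.05 on the adjusted p, dropping the fold threshold, and leaving out each sample. The genes and lists were chosen with earlier results of these data known. The numbers paired the control samples: deviations from group means correlated at 0.365 to 0.427 for the 3 shared numbers (mean -0.136 for other pairs). Values were given in every sample for the SREBP regulators, *Hmgcs1* and *Sqle*, and for any member past the thresholds, of which there was none. Other members shown sample by sample were picked after their values were seen. Gene overlaps were read from GENCODE M21 on GRCm38, while the authors used GRCm39, and promoters from RefSeq on GRCm38.p6.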

Additional observations from a re-analysis of the deposited data

Results flagged for a closer look

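In 93 groups of 4 samples (31 genes in 3 groups), a sample was set apart when its gap to the nearest other sample, as a share of the group's range, exceeded Dixon's 95% critical value, which chance alone gives in about 1 in 20 groups. All 3 such values were in control + A83-01. *Fdft1* read 6804 in replicate 1, with the other 3 samples between 4645 and 4853. *Mylip* read 423 in replicate 2, with the others between 197 and 235. *Abca1* read 95.3 in replicate 2, with the others between 13.9 and 26.9.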

How the results depend on the processing

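The count of members past the thresholds remained at 0 of 31 under every alternative run, apart from the following. For A83-01 in control organoids it was 1 (*Abca1*) at an adjusted p below 0.05, and 0 to 1 when each sample was left out, with 1 (*Abca1*) without replicate 2 of control + A83-01. For genotype with vehicle it was 1 (*Lrp8*) at an adjusted p below 0.05 and with all 4 groups in the fit. The replicate block gave 0 members in each comparison and changed no member's call. It ended the calls of *Lrp2*, *Gramd1a* and, for the interaction, *Mid1ip1* given above, although replicate positions did not pair the *Smad2/3* cKO samples. These calls also ended when 1 sample was left out, in 6 of 7 fits for *Lrp2* (adjusted p up to 0.0683), 6 of 7 for *Gramd1a* (up to 0.0366) and 9 of 15 for *Mid1ip1* (up to 0.0182). That of *Mid1ip1* for A83-01 in control organoids ended in 1 of 7 (0.0117). *Abca1* ranged from -2.91 to -2.32 (adjusted p 0.0112 to 0.0531) over the other settings and from -3.23 to -2.33 (0.00534 to 0.144) with 1 sample left out, and *Lrp8* for genotype from -0.98 to -0.84 (adjusted p 0.00757 to 0.0789), or -0.99 to -0.79 (0.0169 to 0.0631) with 1 sample left out.

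Counts over all genes moved more. For A83-01 in control organoids, 295 genes passed, and 582 with sample weights, 443 with the number series, 655 with all 4 groups, 200 without trend, 955 at an adjusted p below 0.05, and 49 to 312 with 1 sample left out. For genotype with vehicle, 970 passed, and 211 with the replicate block, 452 without trend, 2410 at an adjusted p below 0.05, and 280 to 992 with 1 sample left out. For genotype with A83-01, 3 passed, and 0 with the replicate block, 72 with the number series, 1 without trend, 5 with all 4 groups, 2 at a pseudocount of 0.1 or equal totals, and 0 to 4 with 1 sample left out. The interaction gave 72, and 127 with sample weights, 208 at an adjusted p below 0.05, and 39 to 77 with 1 sample left out. Equal totals changed the higher and lower calls for genotype with vehicle from 536 and 434 to 440 and 538. The cause was not tested. With 3 or 4 samples a group, *Abcg1*, *Abca1*, *Mvd* and *Hmgcs1* had the largest within-group SD of the 31 genes, at 1.03, 0.87, 0.60 and 0.49 on the log2 scale.

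In the 3 comparisons that involve *Smad2/3* cKO, replicate numbers did not pair the samples, with mean correlations of 0.0583, 0.136 and -0.0235 for the same replicate number. The 1 number that *Smad2/3* cKO shared with *Smad2/3* cKO + A83-01, at different replicate positions, gave 0.365 (-0.364 to 0.393 over all pairs of these groups). The number series had 0 members past the thresholds in every setting, and 5 or fewer of all genes.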
